A study of Homo sapiens with 9 samples.

Results

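Untreated MM.1S cells were described from 3 of the 9 libraries of a study of epigallocatechin gallate (EGCG), a green tea polyphenol, by RNA sequencing. MM.1S is an established cell line from human multiple myeloma. The libraries used are control replicates 1, 2 and 3, labelled with 0 µM EGCG at 24 h. The cells were kept in RPMI medium with 10% fetal bovine serum and antibiotics, and total RNA was purified on columns. The libraries that received EGCG were not used, so no treatment is compared. All 3 libraries come from the same line, and the labels do not say that they were separate cultures. Their spread may therefore be technical.

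Myeloma is a tumour of plasma cells, the antibody-secreting end stage of the B lineage. A plasma cell switches off the B cell programme headed by PAX5 and runs on IRF4, PRDM1 (BLIMP1) and XBP1, which together build a large endoplasmic reticulum (ER) for antibody folding and export. Myelomas often carry a translocation that places an oncogene such as MAF, CCND1, CCND3 or NSD2 with FGFR3 under immunoglobulin heavy chain enhancers, and MM.1S is known for one with MAF.

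The control libraries held 13138486 to 14441465 gene counts, with a mean of 13810862 ± 652493 (SD, n = 3). Levels are given as FPKM, counts scaled to library size and per kilobase of merged annotated exon, recomputed from the deposited counts because the deposited FPKM divide by a longer length for many genes. Means ± SD below are over the 3 libraries. A gene was called expressed at 1 FPKM or more in each library. This held for 11551 of 57933 genes (19.9%) and for 9364 of 19858 protein-coding genes (47.2%), leaving out the Y chromosome and the X-inactivation RNAs. Among the expressed protein-coding genes the median level was 8.44 FPKM, the 90th percentile 43.0 FPKM and the 99th percentile 246 FPKM. No test between groups was made, and an exact sign-flip test of any 2 genes over 3 libraries could not reach a two-sided p below 0.25. Differences between genes are therefore described by whether their values overlap across the libraries.

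A few RNAs took a large share of each library. The 10 genes with the highest CPM (counts scaled to library size) held 9.46% ± 0.54 of all counts, the leading 100 held 22.1% ± 1.14 and the leading 1000 held 52.9% ± 1.47. The first 50% of counts lay in 892, 892 and 772 genes in controls 1, 2 and 3. The plot of cumulative share by rank shows control 3 slightly above the other libraries over most of its length.

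**Figure D1:**
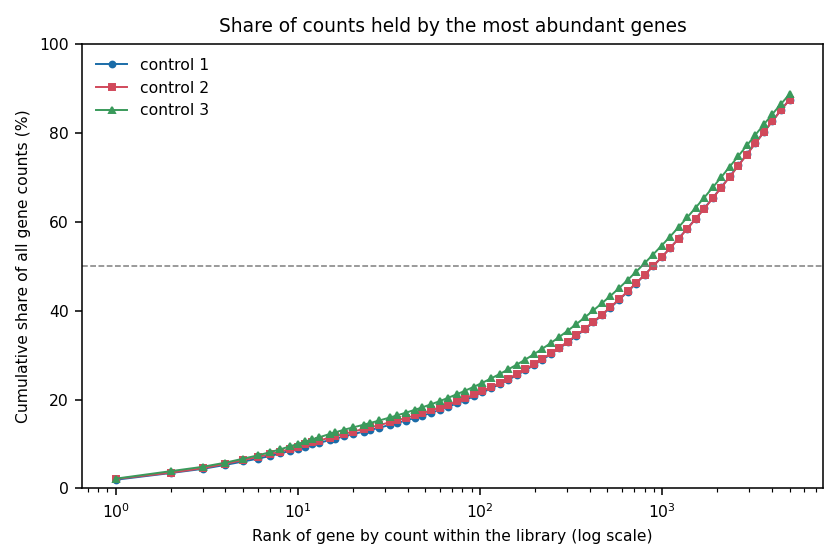
Cumulative share of all gene counts (%, vertical axis) against the rank of each gene by count within its own library (log scale), one line per control library. The dashed line marks 50%, which the lines cross at 892, 892 and 772 genes.

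Genes with only a clone name or ID were left out of the ranking by level. The 25 leading genes of at least 300 bases comprised 12 mitochondrially encoded genes, 6 pseudogenes, 6 nuclear protein-coding genes and 1 immunoglobulin segment. Mitochondrial genes held 8.15% ± 0.48 of counts, and their 2 ribosomal RNAs 0.70% ± 0.04. MT-CO2, a core subunit of cytochrome c oxidase, led at 13795 ± 763 FPKM, and MT-CO1 of the same complex lay at 13668 ± 831 FPKM. The 6 nuclear coding genes were IGLL5, FTL, EEF2, TXNDC5, ITGB7 and RPS12. FTL, the ferritin light chain, stood at 1801 ± 189 FPKM. EEF2, which moves the ribosome along the messenger, stood at 1535 ± 188 FPKM. TXNDC5, an ER disulphide isomerase abundant in plasma cells, had 1425, 1391 and 1481 FPKM. ITGB7, the beta 7 integrin chain, had 1309, 1312 and 1645 FPKM, highest in control 3. JCHAIN, which joins IgA and IgM into polymers, followed just outside these 25 at 1219 ± 26.9 FPKM. The housekeeping genes GAPDH and ACTB lay below all of these means, at 1081 ± 146 and 1044 ± 132 FPKM. Also by merged exons, the values of ACTB in single libraries (926 to 1187 FPKM) all fell under those of TXNDC5 and ITGB7. The order depends in part on the length used. Per length of the principal transcript, mean ACTB (1913 FPKM) lay above FTL (1801), RPS12 (1712) and JCHAIN (1424). GAPDH (1718) lay above RPS12 and JCHAIN. EEF2 (1953), TXNDC5 (2119) and ITGB7 (2223) stayed above both housekeeping genes.

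The antibody RNA was of 1 light chain. Genes of the immunoglobulin loci together with IGLL5 held 1.84% ± 0.16 of all counts. The lambda light chain locus took 1.8% ± 0.16, the heavy chain locus 0.044% ± 0.002, and the kappa locus 7.81e-05% ± 3.13e-05. IGLV2-14, a lambda variable segment at chr22:22758700-22759218 (GRCh38), had 35582, 31040 and 40732 counts. It held 98.5% ± 0.06 of the counts on all 37 lambda variable segments, and its level was 6440 ± 768 FPKM. Of the joining segments, IGLJ1, which overlaps an exon of IGLL5, had 57 of 64 counts.

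Constant region counts were assigned to IGLL5, a gene at chr22:22887780-22896107 whose last exon holds the constant gene IGLC1 (chr22:22895375-22895834). IGLL5 had 217797, 186776 and 232038 counts (11498 ± 965 FPKM), next to 226 counts for IGLC2 and 40 for IGLC3 over all libraries. The 460 bases of IGLC1 are identical to the IGLL5 transcript, so reads from a rearranged IGLC1 chain and from IGLL5 itself cannot be told apart. IGLC1 differs from IGLC2 at 33 of 462 aligned bases, while IGLC2 and IGLC3 differ from each other at 4. The 120 coding bases of each that differ most are shown because these differences are what assigns a read to one constant gene. They lie at chr22:22895375-22895494, chr22:22900976-22901095 and chr22:22906342-22906461 on the plus strand (GRCh38, GENCODE 29 transcripts), with the 11 positions that vary in capitals:
IGLC1: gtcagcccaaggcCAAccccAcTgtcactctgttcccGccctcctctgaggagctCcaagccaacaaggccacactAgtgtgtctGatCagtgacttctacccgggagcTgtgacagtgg
IGLC2: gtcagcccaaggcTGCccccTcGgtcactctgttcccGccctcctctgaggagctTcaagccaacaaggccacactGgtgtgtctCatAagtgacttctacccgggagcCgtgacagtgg
IGLC3: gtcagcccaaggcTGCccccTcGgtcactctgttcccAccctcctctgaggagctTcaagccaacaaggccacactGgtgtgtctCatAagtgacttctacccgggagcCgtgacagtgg

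Heavy chain RNA was present at a far lower level and lacked a dominant variable segment. IGHG1, the IgG1 constant gene, had 5625, 4602 and 5127 counts (134 ± 7.10 FPKM) and held 84.4% ± 0.84 of heavy chain constant counts. IGHG2 followed at 13.9 ± 1.52 FPKM, IGHG4 at 7.08 ± 0.40 FPKM and IGHG3 at 3.56 ± 0.14 FPKM. These genes are near-identical copies, so counts may be split between them. IGHA1 and IGHA2, the IgA constant genes, had 10 counts each over all libraries. IGHM, IGHD, IGHE and the kappa constant gene IGKC had 0 counts. All 59 heavy chain variable segments together had 56 counts, against 109010 counts on the lambda variable segments.

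Many abundant RNAs were counted on pseudogenes. Processed pseudogenes, copies of a messenger RNA inserted back into the genome, held 3.87% ± 0.21 of all counts. Of 10512 processed pseudogenes, 778 reached 1 FPKM in each library, as did 11551 of all 57933 genes (19.9%). EEF1A1P5 on chromosome 9 had 67769, 60104 and 68268 counts. Its parent EEF1A1, the elongation factor that brings aminoacyl-tRNA to the ribosome, had 46671, 40768 and 47222 counts, fewer in each library. For ribosomal proteins, 28.8% ± 0.30 of the counts on genes and their pseudogenes lay on pseudogenes, and for 20 of 79 parents the pseudogenes held more than the gene. RPS28P7 had 44852 counts in all against 2988 for RPS28. RPL7AP6 had 26860 against 1127 for RPL7A. The 12 most counted of these pseudogenes with a GENCODE 29 transcript were 98.5% to 100% identical to a parent transcript over their whole length. RPS28P7 matched RPS28 at all 210 bases, EEF1A1P5 differed from EEF1A1 at 4 of 1389, and RPL7AP6 from RPL7A at 12 of 801. Windows of 100 coding bases from these pairs show how little separates them, with differing bases in capitals. The pseudogene windows lie at chr11:82689559-82689658 (plus strand), chr9:133019680-133019779 (plus strand) and chr14:69885660-69885759 (minus strand):
RPS28P7: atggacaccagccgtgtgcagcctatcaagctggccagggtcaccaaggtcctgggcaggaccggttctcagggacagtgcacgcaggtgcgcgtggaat
RPS28: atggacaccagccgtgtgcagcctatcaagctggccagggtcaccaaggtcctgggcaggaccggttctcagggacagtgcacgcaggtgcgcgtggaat
EEF1A1P5: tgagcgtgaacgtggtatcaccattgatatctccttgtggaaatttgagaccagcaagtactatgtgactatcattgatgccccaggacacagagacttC
EEF1A1: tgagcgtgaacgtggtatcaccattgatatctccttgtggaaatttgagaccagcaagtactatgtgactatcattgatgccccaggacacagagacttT
RPL7AP6: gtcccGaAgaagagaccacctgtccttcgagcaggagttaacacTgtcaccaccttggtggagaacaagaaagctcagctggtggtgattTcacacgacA
RPL7A: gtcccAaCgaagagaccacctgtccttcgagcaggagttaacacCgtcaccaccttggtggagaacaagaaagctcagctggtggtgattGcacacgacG

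These windows differ at 0 bases for RPS28, 1 for EEF1A1 and 5 for RPL7A. A read that covers none of the differing bases matches gene and pseudogene equally, so the split of counts between them is uncertain. The levels of RPS28 (34.0 ± 2.68 FPKM), EEF1A1 (546 ± 25.8 FPKM) and RPL7A (12.1 ± 1.03 FPKM) carry that limit.

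Nearly all listed transcription factors of the plasma cell were expressed, while the listed factors of the B cell were mixed. Of 18 plasma cell factors, 17 (94.4%) were expressed, with a median of 12.4 FPKM, against 47.2% of all protein-coding genes. XBP1, which drives secretory capacity, had 297, 300 and 325 FPKM. BHLHA15 (MIST1), a factor of secretory cells, had 197, 192 and 236 FPKM. IRF4, on which myeloma cells depend, had 174, 176 and 165 FPKM. Each of these stood above the 90th percentile of mean levels in every library. PRDM1, the repressor of the B cell programme, had 60.4, 69.5 and 47.0 FPKM, with control 3 lowest. POU2AF1 (OCA-B), the coactivator of the octamer factors, stood at 81.5 ± 3.33 FPKM. TCF3 (E2A) stood at 78.9 ± 6.41 FPKM, IKZF3 (Aiolos) at 29.8 ± 0.98 and IKZF1 (Ikaros) at 14.2 ± 1.90 FPKM. The last 2 are the proteins degraded under lenalidomide, through CRBN, which stood at 3.27 ± 0.48 FPKM. ZBTB20 was the member that was not expressed, at 0.01 ± 0.005 FPKM.

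Of 17 B cell factors, 9 (52.9%) were expressed, a share near the 47.2% of all protein-coding genes, with a median of 1.56 FPKM against 0.891 FPKM over all of them. PAX5, the B cell identity factor, had 0, 2 and 0 counts. EBF1 stood at 0.039 ± 0.005 FPKM and BCL6, the germinal centre factor, at 0.31 ± 0.04 FPKM. Other members of the same list were well above 1 FPKM. MEF2C had 21.1 ± 7.81 FPKM, ETS1 16.1 ± 0.93, LEF1 11.2 ± 0.04 and SPI1 (PU.1) 10.2 ± 0.40 FPKM. CIITA, which switches on MHC class II genes, had 3.59 ± 0.26 FPKM. Within the list, the leading members thus lay far above PAX5, EBF1 and BCL6 in every library.

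Among 21 factors of other blood lineages 5 (23.8%) were expressed (median 0.122 FPKM), against 47.2% of all protein-coding genes. RUNX3 led at 45.9 ± 2.73 FPKM. RUNX2 passed 1 FPKM in every library, but its 447, 1795 and 466 counts make the size of its mean rest on control 2. GATA1, GATA2, GATA3, CEBPA and TBX21 were each under 0.1 FPKM on average. Of 25 factors of other tissues 3 were expressed and 13 had no count at all. SOX2, a pluripotency and neural factor, had 28.6, 26.3 and 25.4 FPKM, above the median of expressed genes in every library. FOXA1 had 3.75 ± 0.37 and TWIST1 2.60 ± 0.64 FPKM. NANOG and LIN28A, which accompany SOX2 in pluripotent cells, had 0 counts. POU5F1, another such factor, lies in the MHC, a region where ubiquitous genes had no counts, so its level is not given here.

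**Figure D2:**
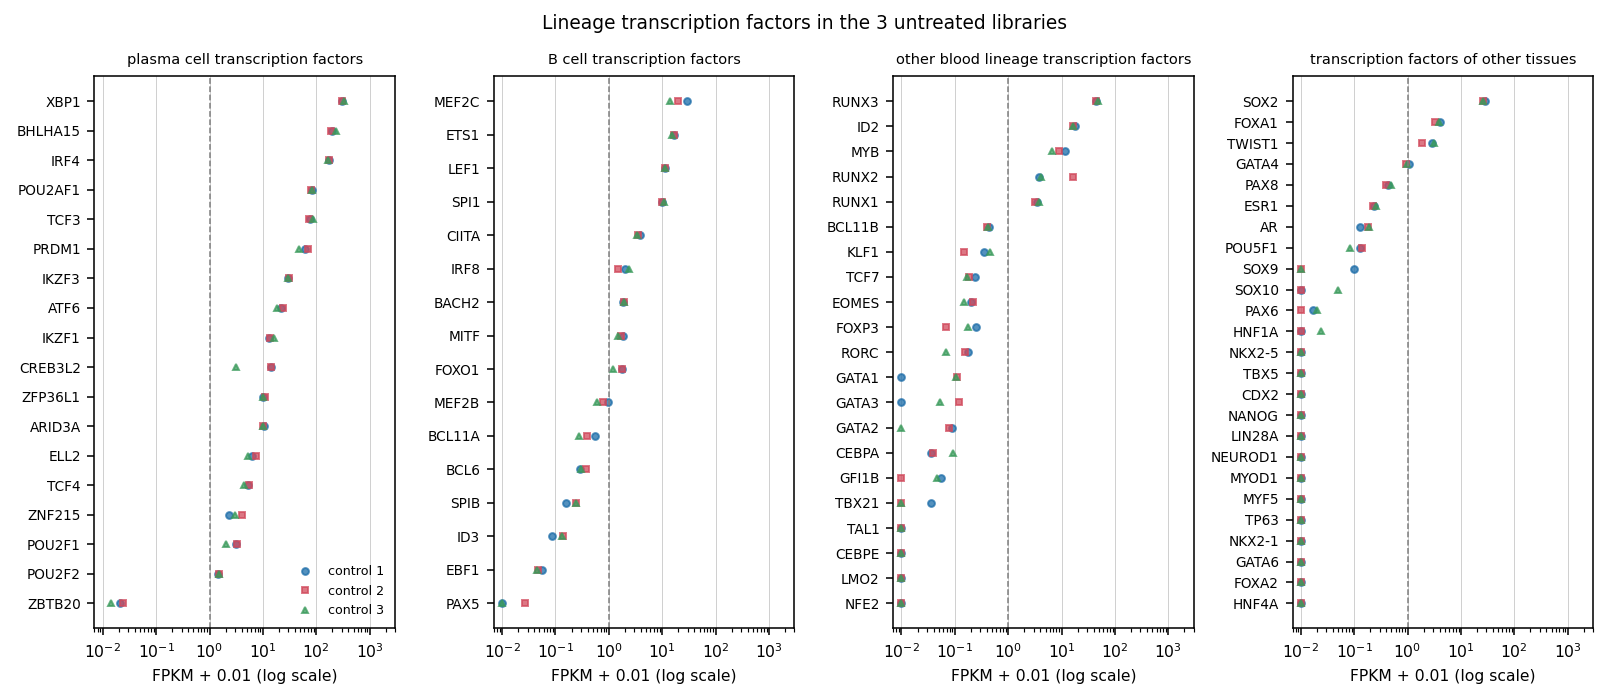
Level of transcription factors in the 3 control libraries (FPKM + 0.01, log scale; one symbol per library), in 4 lists. The dashed line marks 1 FPKM, and genes without counts sit at 0.01. XBP1, BHLHA15 and IRF4 lie far to the right of the line, and PAX5 lies near the left edge.

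Marker lists were set beside the label of the cells. They were chosen with earlier results of these data known, so they are not an independent check of that label. Of 16 plasma cell markers 15 were expressed, with a median of 117 FPKM, and DERL3 at 0.94 ± 0.17 FPKM just missed. Of 14 mature B cell markers 3 were expressed (median 0.046 FPKM). CD79B, a chain of the B cell receptor, had 18.0 ± 1.83 FPKM while its partner CD79A had 1.09 ± 0.15 FPKM. Of the other cell types, 1 of 14 T and NK cell markers (CD3E, 1.47 ± 0.30 FPKM), 1 of 12 monocyte markers (CD68), 2 of 12 erythroid and megakaryocyte markers (HBB, 3.73 ± 0.41 FPKM, and GP1BA), 1 of 12 stromal and endothelial markers (PECAM1) and 0 of 10 epithelial markers were expressed. These shares lay below the 47.2% of all protein-coding genes, and the share of plasma cell markers above it.

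MAF and some of the genes tied to its translocation were at high levels, while others were near 0. MAF, at chr16:79585843-79600714, had 265, 268 and 244 FPKM. MAFA, another large MAF factor, was low at 0.097 ± 0.037 FPKM. CCND2, the cyclin known as a MAF target, had 92.7, 91.8 and 82.5 FPKM. CCND3 had 8.71 ± 2.22 and CCND1 2.57 ± 0.43 FPKM. Of 10 genes described as the MAF programme, 6 (60%) were expressed, not far from the 47.2% of all protein-coding genes, and the list's median of 5.12 FPKM lay below the 8.44 FPKM of expressed ones. ITGB7 led, CCR1, a chemokine receptor, had 111 ± 3.91 FPKM, NUAK1 17.7 ± 0.93 and CX3CR1 7.02 ± 0.13 FPKM. SMARCA1, TNFRSF12A and CDH1 were each under 0.1 FPKM.

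The genes of other myeloma translocations and lesions varied. NSD2 had 14.9 ± 0.32 FPKM without its usual partner FGFR3, which had 9, 6 and 7 counts. MYC had 298, 275 and 967 counts, so its mean of 12.4 ± 9.43 FPKM rests on control 3. NRAS had 25.7 ± 7.74 and BRAF 1.81 ± 0.31 FPKM. Of 25 genes known to be inactivated in some myelomas, 18 (72%) were expressed, against 47.2% of all protein-coding genes. The list's median of 3.76 FPKM lay below the 8.44 FPKM of expressed protein-coding genes. TENT5C (FAM46C), a poly(A) polymerase, had 153 ± 12.1 FPKM. TRAF3, a brake on the non-canonical NF-kB pathway, had 3.76 ± 0.20 FPKM, while NFKB2, the subunit that pathway processes, had 70.6 ± 4.66 FPKM. CDKN2C, an inhibitor of CDK4 and CDK6 at chr1:50960745-50974633, had 0 counts in all libraries, where 3 counts would be 0.208 to 0.228 CPM. Its neighbour FAF1, named after its values were seen, had 15, 9 and 22 counts, and C1orf185 on the other side had 0. Farther out, RNF11 had 20.1 ± 1.61 and EPS15 12.3 ± 1.90 FPKM.

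Genes of the ER and of secretion were high as a group. Of 50 genes of antibody assembly and ER folding, 47 (94%) were expressed, against 47.2% of all protein-coding genes. The list's median was 48.2 FPKM, against 8.44 FPKM over expressed protein-coding genes and 0.891 FPKM over all of them. Chaperones led after TXNDC5 and JCHAIN. CALR (calreticulin) had 395 ± 35.3 FPKM, PPIB (cyclophilin B) 320 ± 17.3, HSP90B1 (GRP94) 296 ± 56.8 and HSPA5 (BiP) 279 ± 10.3 FPKM. MZB1, a GRP94 co-chaperone of B lineage cells, had 244 ± 13.1 FPKM. The disulphide isomerases PDIA4, P4HB, PDIA6 and PDIA3 had 211 ± 7.80, 161 ± 16.6, 149 ± 6.09 and 95.5 ± 2.39 FPKM. Of the translocation channel, SEC61B had 153 ± 4.63 FPKM with little spread and SEC61A1 147 ± 69.5 FPKM with much. Sensors of ER stress were lower: ERN1 (IRE1) 33.9 ± 1.84, ATF6 21.1 ± 2.73 and EIF2AK3 (PERK) 18.1 ± 3.55 FPKM. The 3 members under the 1 FPKM rule were DERL3, PIGR, the epithelial receptor for polymeric antibody (0.054 ± 0.033 FPKM), and HYOU1 (0.86 ± 0.18 FPKM). HYOU1 lies in a stretch of chromosome 11 where ubiquitous genes had few counts, so its value is not read as low expression.

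Some promoters of these genes hold a known element. The ER stress response element (ERSE), CCAAT and CCACG with 9 bases between them on either strand, binds NF-Y and ATF6 or XBP1. RefSeq promoter windows (GRCh38.p14, 250 bases before to 50 after a start) were matched by symbol for 45 of the 50 genes, and 8 of them held an ERSE (17.8%). Over all 15284 protein-coding genes with a window, 21 held one (0.137%). The related ERSE-II, ATTGG and CCACG with 1 base between them, was found in 3 of the 45 (6.67%) and in 15 of all (0.098%), and no gene of the list held both. Much of the list is textbook ER stress response genes, so this match follows in part from how it was drawn up. The 8 genes with an ERSE ranged from CALR at 395 FPKM to ERO1B at 1.08 FPKM. The 250 bases upstream of 3 abundant members are shown with the fixed letters of each ERSE in capitals, XBP1 at chr22:28800570-28800819 (minus strand), HSPA5 at chr9:125241344-125241593 (minus strand) and HSP90B1, with 2 matches, at chr12:103930160-103930409 (plus strand):
XBP1: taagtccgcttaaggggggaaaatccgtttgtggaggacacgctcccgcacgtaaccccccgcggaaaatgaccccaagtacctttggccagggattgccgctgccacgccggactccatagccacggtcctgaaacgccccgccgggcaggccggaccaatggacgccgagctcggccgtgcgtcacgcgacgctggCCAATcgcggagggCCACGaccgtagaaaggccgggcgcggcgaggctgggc
HSPA5: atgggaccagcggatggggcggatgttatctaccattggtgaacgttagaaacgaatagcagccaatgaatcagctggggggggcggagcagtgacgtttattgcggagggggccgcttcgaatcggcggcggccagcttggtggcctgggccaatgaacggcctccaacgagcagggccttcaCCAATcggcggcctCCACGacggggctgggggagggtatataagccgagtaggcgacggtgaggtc
HSP90B1: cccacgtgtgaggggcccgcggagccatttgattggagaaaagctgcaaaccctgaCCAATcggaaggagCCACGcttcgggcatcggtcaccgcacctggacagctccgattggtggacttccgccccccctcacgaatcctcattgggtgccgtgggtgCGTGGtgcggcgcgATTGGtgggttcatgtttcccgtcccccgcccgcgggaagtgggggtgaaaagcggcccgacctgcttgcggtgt

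Of 18 plasma cell and myeloma antigens 13 (72.2%) were expressed, and of 21 B cell antigens 7 (33.3%), against 47.2% of all protein-coding genes. SDC1 (CD138), the heparan sulphate proteoglycan that marks plasma cells, had 275, 260 and 238 FPKM. SEMA4A had 165 ± 6.80 FPKM. The targets of current antibody and cell therapies differed widely in level. TNFRSF17 (BCMA) had 140, 133 and 131 FPKM, SLAMF7 (CS1) 96.2 ± 5.93, GPRC5D 43.6 ± 2.78 and CD38 9.78 ± 0.67 FPKM. The ranges of these 4 did not overlap, and FCRL5 lay below them at 0.19 ± 0.05 FPKM. The order of TNFRSF17 and SLAMF7 depends on scaling by length. In counts, SLAMF7 (6925, 6348 and 5982) exceeded TNFRSF17 (2267, 1956 and 2033) in every library. TNFRSF13B (TACI), the other receptor for APRIL, had 44.2 ± 2.88 FPKM. CD27 and NCAM1 (CD56) were under 0.3 FPKM and KIT had 0 counts. MS4A1 (CD20), CD22, CD24 and FCER2 (CD23) had no count in any library, and CR2 (CD21) had 4.25 ± 0.51 FPKM.

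Of 15 leukocyte and complement regulator genes 12 (80%) were expressed, against 47.2% of all protein-coding genes. BST2 (tetherin) led at 334 ± 30.0 FPKM, BSG (basigin) had 145 ± 7.99, and CD59, which blocks the complement pore, 38.9 ± 2.48 FPKM. CD55 had 1.27 ± 0.19 FPKM. PTPRC (CD45), the phosphatase of most blood cells, had 0.018 ± 0.016 FPKM, CD81 0.15 ± 0.09 and SPN (CD43) 0.0098 ± 0.017 FPKM.

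Integrin chains were uneven in level. ITGB7 at 1422 ± 193 FPKM far exceeded ITGA4, an alpha chain that pairs with it, at 20.5 ± 3.80 FPKM. ITGB1, the other beta chain that pairs with ITGA4, had 15.5 ± 1.59 FPKM. ITGAL (CD11a) had 34.0 ± 0.05 FPKM, while ITGB2 (CD18), its only known partner, had 0.022 ± 0.020 FPKM. SELPLG, the P-selectin ligand, had 247 ± 32.9 FPKM. VCAM1 had 0 counts.

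Of receptors for growth and homing signals, 15 of 26 cytokine receptors (57.7%) and 10 of 18 chemokine and lipid receptors (55.6%) were expressed, shares near the 47.2% of all protein-coding genes. IL6R, the receptor for the main myeloma growth factor, had 105, 107 and 104 FPKM, and its signalling partner IL6ST (gp130) 28.1 ± 6.66 FPKM. IGF1R had 5.58 ± 0.30 FPKM. IL2RA, IL2RB and PDGFRA had 0 counts. CXCR4, which holds plasma cells in bone marrow, had 57.3 ± 0.82 FPKM and CCR10, of mucosal plasma cells, 42.6 ± 3.98 FPKM. CCR7, CXCR5 and S1PR1, receptors of lymph node traffic and egress, had 0 counts, whereas S1PR2 had 10.99 ± 0.81 FPKM. Of 18 nutrient transporters 14 (77.8%) were expressed, led by SLC1A5, a glutamine carrier, at 211 ± 6.14 FPKM and CD320, the receptor for transcobalamin, at 187 ± 11.9 FPKM. Of 9 death receptors 5 (55.6%, again near that background) were expressed, TNFRSF10A (TRAIL-R1) at 17.0 ± 1.20 and FAS at 3.27 ± 0.54 FPKM among them.

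**Figure D3:**
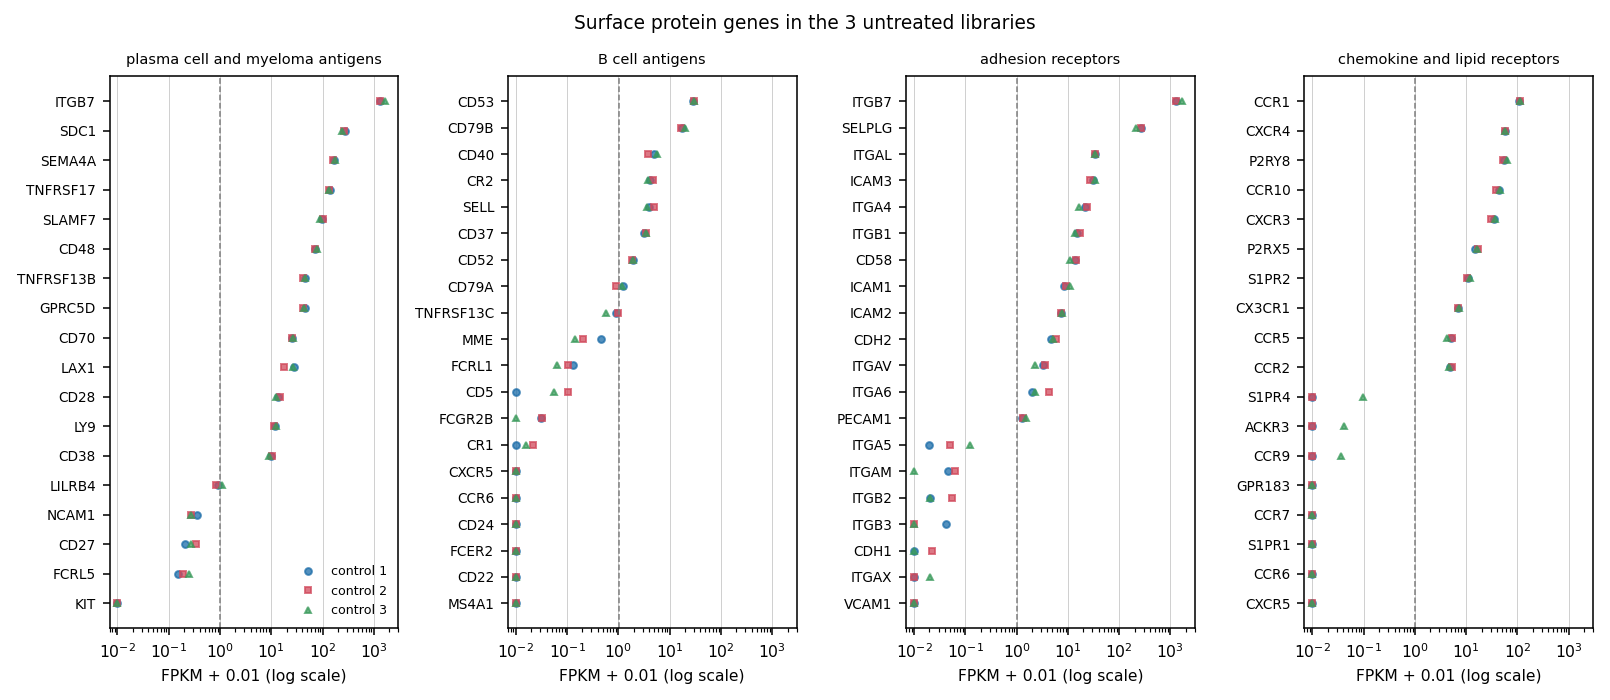
Level of surface protein genes in the 3 control libraries (FPKM + 0.01, log scale; one symbol per library), in 4 lists. The dashed line marks 1 FPKM. ITGB7, SDC1, SELPLG and CCR1 lie at the top of their panels, and MS4A1, CD22, CCR7 and VCAM1 at the left edge without counts.

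Paralogue choice was examined in 99 families, of which 98 had a leading member that was expressed. The leader held at least 90% of the family's summed FPKM in 34 families, 50% to 90% in 55 and under 50% in 9, with a median share of 80.9%. In 3 families the values of the leader and the second overlapped between libraries (RAS proteins, cellular IAPs and topoisomerase II). A single member was expressed in 22 families and every member in 39.

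Some leaders were tissue-restricted members or took the place of a common form. ATP2A3, the calcium pump of blood cells, had 94.7 ± 9.23 FPKM against 12.5 ± 2.95 for the ubiquitous ATP2A2. SEC11C, the signal peptidase subunit of secretory cells, had 98.3 ± 9.89 FPKM against 16.0 ± 0.72 for SEC11A. PIK3CG (p110 gamma) held 69.9% ± 0.47 of class I PI3K catalytic subunits, with PIK3CB second. PIM2, a kinase on which myeloma cells depend, had 410 ± 8.64 FPKM and PIM1 139 ± 9.57 FPKM. IRF4 held 61.3% ± 0.59 of its family of 9, and IRF2 followed at 41.2 ± 2.37 FPKM. HK2, the hexokinase of many tumours, had 17.1 ± 1.39 FPKM against 4.02 ± 0.38 for HK1. TUBB4B held 95.6% ± 0.07 of beta tubulins and had 25548 counts over all libraries. Processed pseudogenes named after TUBB had 11181 counts. TUBB itself lies in a region where ubiquitous genes had no counts, so the share of TUBB4B is uncertain. Of the 98 families 4 hold a gene of that region, the MHC, and without them 30 of 94 were dominated by 1 member.

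Survival genes differed in level between members. BCL2L1 (BCL-XL) had 69.5 ± 3.75 FPKM and MCL1 46.9 ± 2.38 FPKM, and the ranges did not overlap. Of the 6 anti-apoptotic BCL2 family members 3 were expressed, a share near the 47.2% of all protein-coding genes. BIRC2 and BIRC3, the cellular inhibitors of apoptosis, had 9.34 ± 3.34 and 6.56 ± 1.32 FPKM, with overlapping values. Of the caspases, CASP8 held 54.8% ± 8.08 of the initiators.

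Several metabolic and structural families were held almost entirely by 1 member. FTL had 97.97% ± 0.12 of ferritin, with FTH1 at 37.1 ± 1.66 FPKM. HSP90AB1 had 835 ± 19.1 FPKM against 83.7 ± 13.8 for the inducible HSP90AA1. SOD1 had 99.35% ± 0.04 of superoxide dismutases. PKM, PGK1, ALDOA and ENO1 each held over 90% of their glycolytic families. LDHB had 265 ± 13.8 FPKM against 168 ± 19.4 for LDHA, an order that turned round in CPM, where LDHA had the higher value. Since several ferritin, actin, elongation factor and ribosomal genes have processed pseudogenes, the shares of these families also depend on where reads were placed. The plot of leading shares gives all 98 families.

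**Figure D4:**
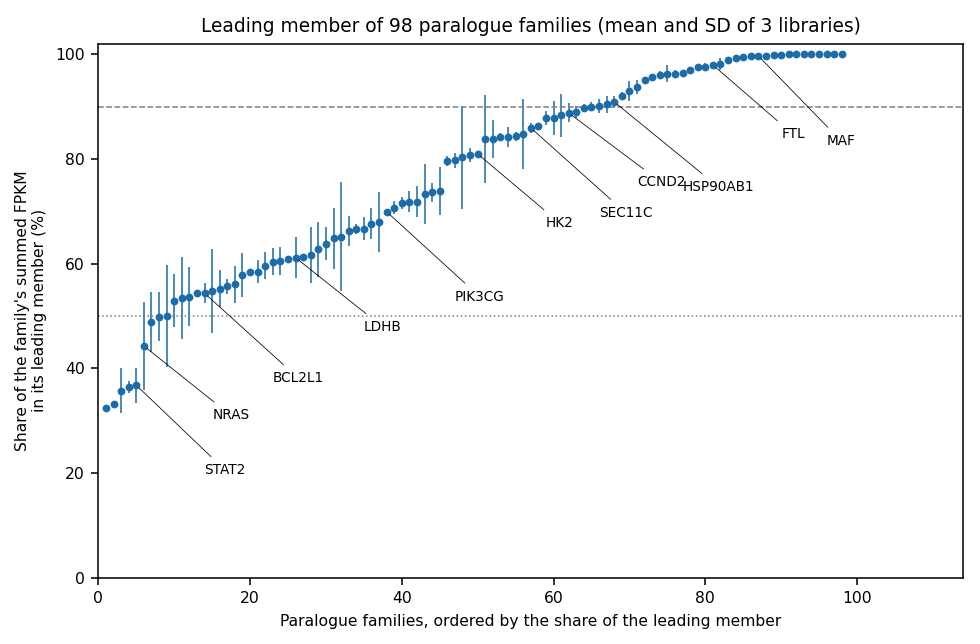
Share of each family's summed FPKM held by its leading member (%, mean and SD of 3 control libraries) for 98 paralogue families in ascending order, with some leaders named. Lines mark 50% and 90%. The shares rise without a step to 100%, and 34 families lie at or above 90%.

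Many protein-coding genes were silent. Of 19858 protein-coding genes, 4621 (23.3%) had 0 counts in all 3 libraries. A count of 0 allows up to 3 counts per library, or 0.104 to 0.114 FPKM for a gene with 2000 bases of exon. This limit covers counting error only, and not reads shared by near-identical copies, whose treatment is not stated. Some families for other tissues were largely silent. Others were less so, with 29.5% of collagens, 33.3% of taste receptors and 41.1% of potassium channels at 0 counts. Of 381 olfactory receptor genes 349 had no count and 2 were expressed, OR7G3 at 3.80 ± 0.91 and OR4C6 at 1.99 ± 0.53 FPKM. Of 94 keratin-associated proteins 87 had no count, and of 55 keratins 50, with KRT10 at 23.3 ± 1.15 FPKM the only one expressed. Of 39 HOX cluster genes 25 (64.1%) had no count and 2 were expressed, HOXB7 (2.35 ± 0.58 FPKM) and HOXB4 (2.26 ± 0.22 FPKM). No type I interferon, defensin, ephrin receptor or clustered protocadherin gene was expressed. The last 2 groups were low rather than silent, with 4 of 14 ephrin receptors and 12 of 53 protocadherins at 0 counts, near the background of 23.3%.

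At the other end, 78 of 79 cytosolic ribosomal proteins, 76 of 78 mitochondrial ribosomal proteins and 35 of 39 proteasome genes were expressed. Between these ends lay the 509 zinc finger genes named ZNF, with 42.2% expressed, close to the background of 47.2%, and 10.8% without a count.

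**Figure D5:**
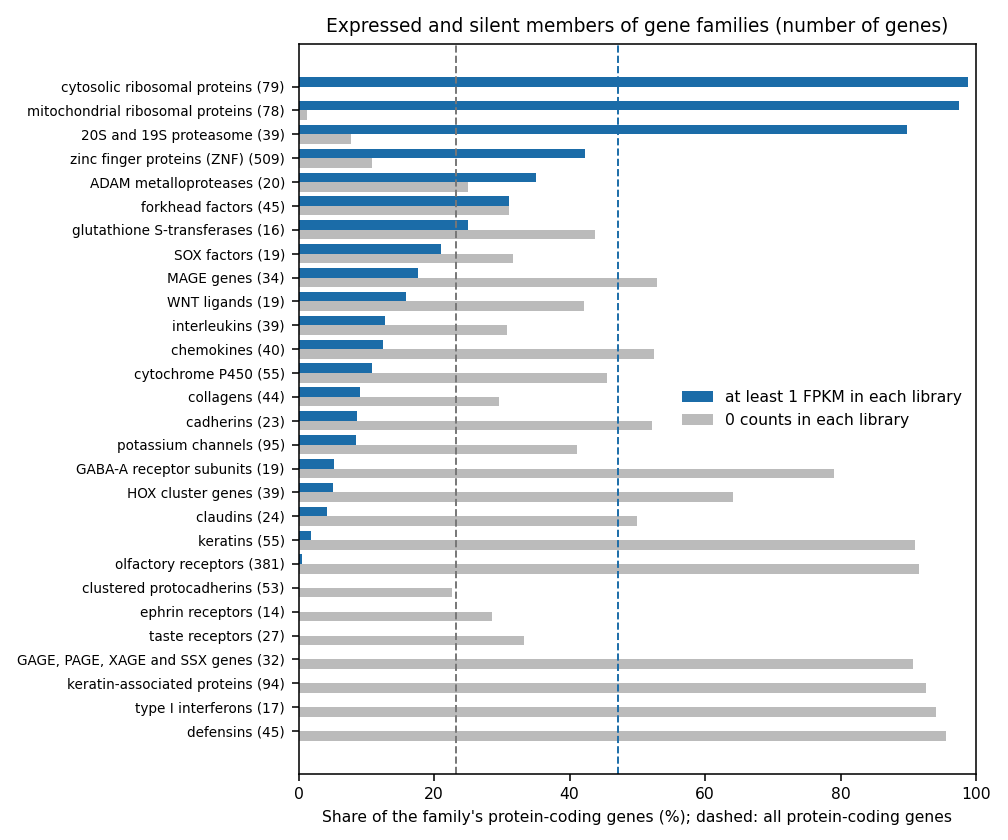
Share of protein-coding genes at 1 FPKM or more in each control library (blue bars) and at 0 counts in each (grey bars), in %, for 28 gene families with the number of genes in brackets. Dashed lines give the shares over all protein-coding genes, 47.2% expressed and 23.3% at 0 counts. Ribosomal and proteasome genes sit at the top, and defensins, type I interferons and keratin-associated proteins at the bottom.

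Promoters of expressed and silent genes differed in base composition. Of 7704 expressed genes with a RefSeq window, 7095 (92.1%) had at least 0.6 of the CpG dinucleotides that their C and G content would give. Of 3259 genes with 0 counts, 1052 (32.3%) did, and of all 15284 genes 71.2%. The median ratio was 0.886 in expressed and 0.339 in silent genes. Each gene was scored by the highest ratio among its windows, so genes with more annotated starts had more chances to pass.

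Genes with 0 counts included some that most cells use. Within the major histocompatibility complex (MHC), from HLA-F to HLA-DPB1 at chr6:29722775-33087201, 71 of 137 protein-coding genes (51.8%) had no count, against 23.1% elsewhere, and 12.4% were expressed against 47.4%. The silent genes there include ones that every dividing cell uses. TUBB (beta tubulin), DDX39B and LSM2 (RNA splicing), NELFE (transcription) and MRPS18B (mitochondrial ribosome) had 0 counts in all libraries. CSNK2B, a kinase subunit, had 0, 1 and 2 counts. Processed pseudogenes named after TUBB, by contrast, held 11181 counts over all libraries. Other genes of the region had reads. HLA-B had 103 ± 6.42, HLA-DRA 36.3 ± 3.21 and BRD2 9.34 ± 0.63 FPKM. CD74, the class II chaperone encoded on another chromosome, had 332 ± 45.2 FPKM, whereas HLA-DPA1, HLA-DQA1 and HLA-DMA had 0 counts.

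Similar gaps occurred elsewhere. On chromosome 19, RPS9, the only cytosolic ribosomal protein not expressed, had 6, 0 and 3 counts, NDUFA3 of respiratory complex I had 0 and the splicing factor PRPF31 had 2, 0 and 0. PSMC4, a proteasome ATPase, had 30, 28 and 22 counts. On chromosome 11, the HOPS subunit VPS11 had 14, 10 and 17 counts beside HYOU1 with 116, 88 and 72, while H2AX nearby had 189 ± 16.7 FPKM. These housekeeping genes outside the ribosomal and proteasome families were named after their values were seen. Levels of genes in these stretches, HLA, PSMB8 (0 counts) and PSMB9 (2.29 ± 0.44 FPKM) included, are not read as absence or low expression. The sources used here do not say how multiply placed reads and alternate haplotype sequences were treated, and the cause of the gaps was not tested.

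The 3 libraries differed from each other by more than counting noise. The chi-square per degree of freedom of the counts was 10.4 over 29771 genes, and 7.42 to 14.1 between pairs. Over the 7457 genes whose mean reached 20 CPM, the median coefficient of variation was 9.70% and its 90th percentile 25.5%. Pearson correlations of log2 CPM across these genes, which are not independent replicates, were 0.952 to 0.971.

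In 40 of these genes 1 library stood at least 3-fold from the others, which lay within 1.5-fold of each other. It was the high library for 12 genes and the low one for 28. Control 2 was apart most often, high for 6 genes and low for 13. JUN, an immediate early factor, had 143, 2351 and 123 counts. POLR2A, the large subunit of RNA polymerase II, had 87, 85 and 863 counts. B2M, the light chain of MHC class I, had 5046, 1183 and 3935 counts, and the adaptor GRB2, named after its values were seen, 2655, 750 and 2623. The levels of JUN, POLR2A, B2M, MYC and RUNX2 in untreated cells are therefore not settled by these libraries.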

How the data were processed

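RNA of MM.1S cells was sequenced, and the 3 control libraries were used. The deposited table holds whole-number counts per gene and an FPKM column per library, per the file headers. Per the submitters' processing notes, GRCh38 was the build and HISAT2, SAMtools 1.3.1, CASAVA 1.8 and edgeR were among the tools, in roles not stated. The sources used here give no annotation release, counter or strand setting, so reads of overlapping or antisense genes may be shared. Of 60675 IDs, 58444 were found in GENCODE 29, which gave types, positions and lengths. The 732 other IDs with counts held at most 0.083% of a library.

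The deposited FPKM equal counts divided by the library total and by a length. For 71.6% of 29058 genes that length matched, within 2%, the sum of all distinct annotated exons with overlaps counted repeatedly, and for 41.1% the merged exons. For EEF1A1 it was 22881 against 5948 bases. Levels were therefore recomputed with merged exon length in place of the deposited FPKM first planned, and the deposited FPKM became an alternative (Spearman 0.949 across expressed coding genes).

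The gene lists, families and the rule for named genes were chosen with earlier results of these data known. The rule took the 25 highest levels and 15 highest CPM, both without genes that have only a clone name or ID. It also took immunoglobulin constant genes, all list and family members and 3 leading genes per symbol family. The 10 largest coefficients of variation and ribosomal or proteasome genes under 1 FPKM were added. A family was called dominated at a leading share of 90%. Pseudogenes were paired with parents by symbol and aligned with Biopython 1.88. TMM factors for 1 alternative came from edgeR 4.0.16 in R 4.3.3. Python 3.11.15, pandas 2.3.3 and matplotlib 3.10.9 made the rest. Some genes are not reported here by name, and families whose first or second member is one of them were left out of the comparison of leaders across alternatives. The spread statistic and the search for libraries apart were tested on simulated data.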

Additional observations from a re-analysis of the deposited data

How the results depend on the processing

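The count of expressed genes (11551) stayed within 1.5 times under each alternative run, from 9442 at 2 FPKM to 14526 at 1 TPM, and was 10386 with the deposited FPKM, an alternative chosen after seeing the data. Silent protein-coding genes (4621) ranged from 4550 without the MHC region, also chosen after seeing the data, to 6670 when an FPKM under 0.1 in each library sufficed. Dominated families (34) numbered 51 at a share of 80% and 27 at 95%. The 10 most abundant genes held 21.1% of summed FPKM with no minimum length and 22.8% from 300 bases up, against 9.46% of counts. The spread rose to 19.2 times counting noise when genes under a mean of 10 counts were left out, and was 11.46 with TMM factors. Leaving out 1 control replicate gave 11760 to 12110 expressed genes, 9.17% to 9.71% of counts in the leading 10, 4942 to 5030 silent genes, 32 to 35 dominated families and a spread of 7.42 to 14.1. The lowest spread is that without control 3.

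Leaders of families depend on the length used, which the alternative's own construction brings about. In CPM, which ignores length, the order of leader and second turned in 6 of 88 families, with log2 ratios of -0.46 for CDK4 over CDK6, -0.22 for BIRC2 over BIRC3, -0.41 for LDHB over LDHA, -1.09 for TMSB10 over TMSB4X, -0.30 for YWHAQ over YWHAG and -0.45 for RPL39L over RPL39. With the length of the principal transcript it turned in 4, at -1.04 for BAK1 over BAX, -0.38 for NRAS over HRAS, -1.36 for RPL39L over RPL39 and -0.031 for RPL36AL over RPL36A. With the deposited FPKM it turned in 4, at -0.84 for JAK1 over TYK2, -0.51 for STAT2 over STAT5B, -0.69 for YWHAQ over YWHAG and -0.12 for TGFBR1 over ACVR1B. Leaving out a replicate turned none. Of 24 gene lists, the number of expressed members changed in 11 at 0.5 FPKM, in 16 at 10 counts, and in up to 5 when a replicate was left out.

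No paired analysis was possible because 1 group of samples was described and no groups were compared. Depth limits the lowest levels: 3 counts in a library are 0.208 to 0.228 CPM.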

Other observations

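Several expressed genes are ones that plasma cells are not usually described by. MAGEA1, a cancer-testis antigen gene on the X chromosome, had 71.7, 66.8 and 60.7 FPKM. None of the 32 genes of the GAGE, PAGE, XAGE and SSX families was expressed. Of these genes 29 (90.6%) had no count, against 23.3% of all protein-coding genes. The treatment of multiply placed reads is not stated, so these zeros may include reads lost between similar copies. WNT10A, a secreted WNT ligand, had 39.8, 38.6 and 44.5 FPKM and WNT5B 14.1 ± 0.93 FPKM. Of 19 WNT genes 8 (42.1%) had no count. CYP26A1, which degrades retinoic acid, had 15.4, 15.8 and 16.1 FPKM. GSTP1, a glutathione transferase, had 407 ± 14.8 FPKM. ADAM8, a membrane protease of leukocytes, had 104 ± 5.20 FPKM. ZNF740 led the zinc finger genes at 120 ± 7.54 FPKM. Its span (chr12:53180700-53195141) overlaps that of the abundant ITGB7 (chr12:53191318-53207307), so its level may include reads of ITGB7.

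Of 39 interleukin genes 5 (12.8%) were expressed, against 47.2% of all protein-coding genes. They were led by IL23A at 19.05 ± 0.75, IL16 at 8.89 ± 0.82 and IL12A at 4.41 ± 0.76 FPKM. The following genes were chosen after their values were seen. IL6, a main growth factor of myeloma, had 0 counts, and HGF had 14, 15 and 12. DKK1, a secreted inhibitor of bone formation, had 1.38 ± 0.06 FPKM. The non-coding IFNG-AS1 had 39.0, 44.6 and 33.9 FPKM. It was among the 8 most abundant long non-coding RNAs, leaving out genes with only a clone name or ID. That set was led by SNHG6 at 98.5 ± 1.77 FPKM. VPREB1, the surrogate light chain gene of B cell precursors, had 23, 25 and 20 counts (2.18 ± 0.31 FPKM), and it lies within the lambda locus.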
